A study of Rattus norvegicus with 8 samples.

Results

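The miR-130/miR-301 family was measured in cardiomyocytes isolated from rat hearts at postnatal day 10 (P10) and at postnatal day 0 (P0), with 4 one-colour microarrays per age. The family was taken as the 3 miRNAs named rno-miR-130a, rno-miR-130b and rno-miR-301a on the array (rno for rat, left out from here on), of 677 rat miRNAs in all, and all 6 of their probes were read. The younger age is P0 in the labels of the samples but day 1 in the title and design text, and P0 is used here. The cells came from animals of either sex, no strain or treatment is named, and the labels state a lower proliferation rate at P10 than at P0. Whether the replicates are separate animals or cultures is not stated, and the p-values therefore cover the spread between these arrays alone, which may be technical.

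MicroRNAs are short RNAs that guide Argonaute proteins to messenger RNAs, mostly through the seed, the bases near the 5′ end of the miRNA. Members of 1 seed family can therefore pair with overlapping sets of messages. In human endothelial cells miR-130a is known to repress the homeobox genes GAX (MEOX2) and HOXA5, which restrain vessel growth, and in pulmonary vascular cells the miR-130/miR-301 family is known to repress the nuclear receptor PPARγ.

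The mature sequences are shown because they define the family. They run 5′ to 3′, the capitals mark the seed (bases 2 to 8), and they were taken from RefSeq on build GRCr8. The first 2 belong to members and the third to miR-301b, a relative that lies beside miR-130b and shares its seed.
miR-130a-3p: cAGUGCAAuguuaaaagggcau
miR-130b-3p: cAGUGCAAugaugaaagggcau
miR-301b-3p: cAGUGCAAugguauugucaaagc
Counted from the 5′ end, the mature miR-130a and miR-130b differ by U11A and A13G over 22 bases, outside the seed. The seed AGUGCAA stood at bases 2 to 8 of 3 of the 724 mature rat miRNAs in the RefSeq table, the 3 shown; the search did not include a mature miR-301a-3p. For miR-301a the hairpin is given, with the same AGUGCAA in capitals on its 3′ side.
Mir301a hairpin: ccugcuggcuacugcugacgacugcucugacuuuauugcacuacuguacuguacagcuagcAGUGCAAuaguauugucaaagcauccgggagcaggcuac

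The probes are shown because each member was read through a pair that differs by 1 base in length. They are printed 5′ to 3′ as in the scanner files, with the base that the longer probe of the pair adds in capitals.
miR-130a shorter probe: atgcccttttaacattgc
miR-130a longer probe: atgcccttttaacattgcA
miR-130b shorter probe: atgccctttcatcattg
miR-130b longer probe: atgccctttcatcattgC
miR-301a shorter probe: gctttgacaatactattgca
miR-301a longer probe: gctttgacaatactattgcaC
miR-301b longest probe: gctttgacaataccattgca
The complement of each of these probes occurred in 1 of the 419 rat hairpins in the RefSeq table, its own. The shorter miR-301a probe and the longest miR-301b probe differ by T14C over 20 bases, counted from the probe's 5′ end. The miR-130a and miR-130b probes differ by T10C and A12T over 18 bases. Binding of a probe to the wrong relative was not measured.

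In the scanner files' build, rn4, the longer probes map to chromosome 3 (67949652 to 67949669, minus strand) for miR-130a, chromosome 11 (85885650 to 85885666) for miR-130b and chromosome 10 (75386901 to 75386920) for miR-301a. In GRCr8 the hairpin of miR-301a (chromosome 10, 72422599 to 72422698) lies within the span of Ska2 on the same strand. Ska2 encodes a subunit of the spindle and kinetochore associated complex of dividing cells. The span of Prr11 covers the same hairpin on the opposite strand. The hairpin of miR-130b (chromosome 11, 97384380 to 97384461) starts 270 bases after the end of that of miR-301b, and both lie within the span of the protein-coding gene 2610318N02Rikl, on its strand. The hairpin of miR-130a (chromosome 3, 90229228 to 90229315) lies within no annotated host gene, between Ypel4 and Serping1. Mir3590 overlaps it on the opposite strand, and neither arm of miR-3590 was detected on any array. These genes were named after the annotation was read.

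Levels are background-subtracted spot intensities, averaged over the spots of a probe, divided by the 75th percentile that the array showed among 111 probes, those detected on every one of the 8 arrays, and given as log2. A share of 0.5 or more of a probe's spots flagged by the scanner as well above background counted as detection. The brighter probe stood for each miRNA, and the 158 of 677 miRNAs with detection on the full set of 4 arrays at 1 age or both were tested. With limma and Benjamini-Hochberg adjustment over these 158, 7 were higher and 7 lower at P10 (11 and 0 with no scaling between arrays), which is 8.86% of those tested.

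Some arrays stood apart. P0 replicate 1 was dim: it was scaled to 116 intensity units, against 580 (579.7) to 1326 on the others, and its lowest detected level was log2 -2.84, against -6.61 to -5.48. Over the 158 miRNAs, r was 0.998 within the pair of P10 replicates 1 and 2 and 0.997 within the pair of replicates 3 and 4, while r between those pairs was 0.890 to 0.898. The 4 P10 arrays lay on the second row of the slide and the 4 P0 arrays on the first, so age and slide row cannot be told apart. Of the cardiomyocyte list, the muscle miRNAs miR-1, miR-133a and miR-133b were detected on all 8 arrays. The miRNAs encoded in myosin genes were found less widely: miR-499 was detected on 4 P10 and 3 P0 arrays, miR-208b-3p on 2 and 2, and miR-208 on 4 and 1, with its level at the floor on every P0 array. The epithelial list (5 miRNAs) and the liver miR-122 were not detected on any array.

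All 3 members had a lower mean at P10 than at P0, by unequal amounts, though that of miR-130a turned with no scaling or scaling to all probes. The largest mean difference was that of miR-130b, at 0.369-fold of the P0 level, followed by miR-301a at 0.467-fold, while miR-130a stood at 0.809-fold. With the floor set at the detection limit of the dim P0 replicate 1, the order of the first 2 turned, at log2 -0.83 for miR-130b and -1.10 for miR-301a. None of the 3 passed the adjusted threshold of 0.05 with all 8 arrays, against 4.43% of all tested miRNAs called lower. For miR-130b and miR-301a every P10 array lay below every P0 array, which held for 12.7% of the tested miRNAs (25.9% had no overlap in either direction). The median difference was log2 -1.10 over the 3 members and 0.03 over all 158.

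**Figure D1:**
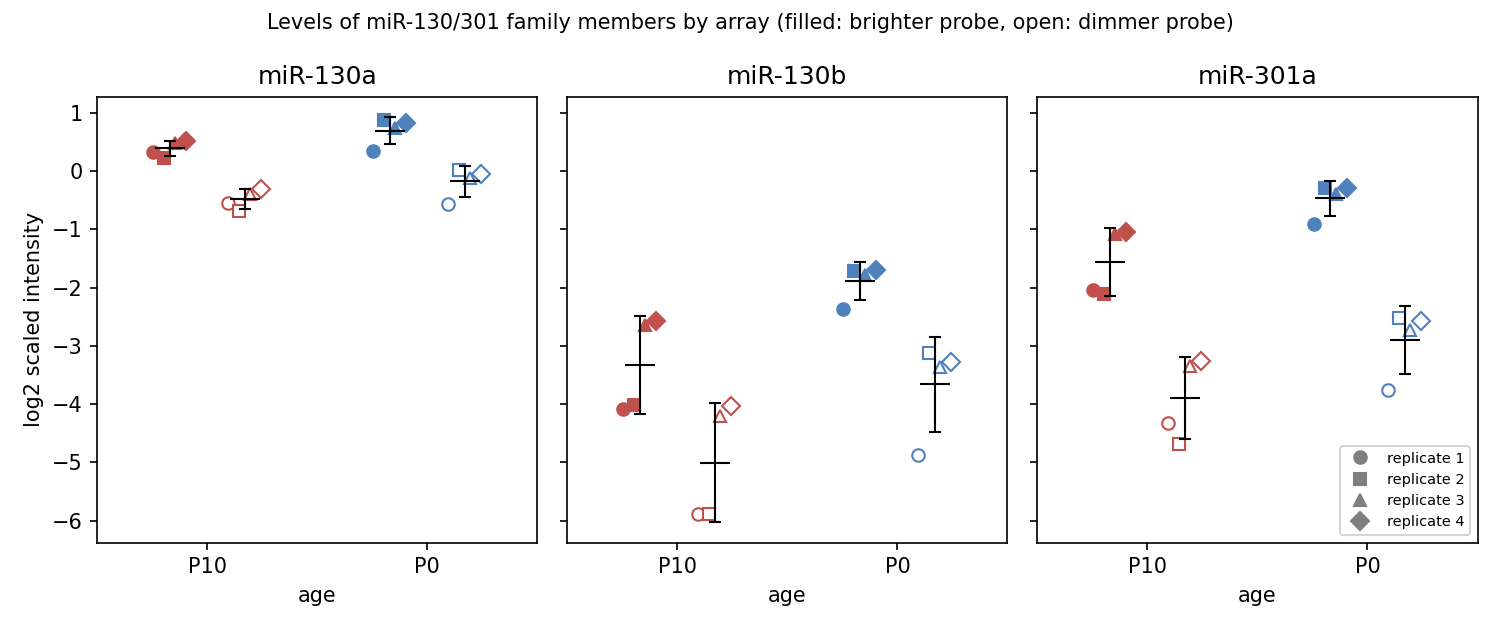
Log2 scaled intensity of miR-130a, miR-130b and miR-301a on each array, P10 left of P0, with the brighter probe filled and the dimmer probe open; bars give mean ± SD of 4 arrays and marker shapes the replicate. For miR-130b and miR-301a the P10 arrays form a low pair (replicates 1 and 2) and a higher pair (replicates 3 and 4), all below the P0 arrays on the brighter probe.

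miR-130b, which shares a locus with miR-301b, had intensities of 38.3, 35.8, 204 and 213 units on P10 replicates 1 to 4, against 22.3, 402, 235 and 358 units on P0 replicates 1 to 4. After scaling, its levels were log2 -4.09, -4.02, -2.65 and -2.57 at P10, against -2.38, -1.72, -1.78 and -1.69 at P0. The low pair at P10 was replicates 1 and 2, and the ages did not overlap, the dim array being the lowest at P0. The means were -3.33 ± 0.84 at P10 and -1.89 ± 0.32 at P0 (SD, n = 4 each). The difference was -1.44 ± 0.41 (SE; 95% interval -2.37 to -0.50), with an adjusted p of 0.0654 by limma with Benjamini-Hochberg adjustment over 158 miRNAs. It was the second lowest difference of the 158. Levels of -4.09 and -4.02 lie under the detection limit of P0 replicate 1, so that array could not have measured levels so low.

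miR-301a, the member hosted by Ska2, had intensities of 159, 134, 605 and 616 units on P10 replicates 1 to 4, against 61.3, 1090.0, 617 and 951 units on P0 replicates 1 to 4. Scaled, these were log2 -2.04, -2.11, -1.08 and -1.04 at P10, against -0.92, -0.28, -0.39 and -0.29 at P0. P10 replicates 1 and 2 were again the low pair, and the ages did not overlap, with all levels above the detection limit of the dim array. The means were -1.57 ± 0.59 at P10 and -0.47 ± 0.30 at P0 (SD, n = 4 each). The difference was -1.10 ± 0.32 (SE; 95% interval -1.84 to -0.36; adjusted p = 0.0740, limma with Benjamini-Hochberg).

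miR-130a, the member known from endothelial cells, was the steadiest. Its intensities were 820.4, 678, 1779 and 1817 units on P10 replicates 1 to 4, against 147, 2421, 1344 and 2052 units on P0 replicates 1 to 4. Its levels were log2 0.33, 0.23, 0.48 and 0.52 at P10, against 0.35, 0.87, 0.74 and 0.82 at P0. The ages overlapped through P0 replicate 1, and the other 3 P0 arrays lay above all P10 arrays. The means were 0.39 ± 0.14 at P10 and 0.69 ± 0.24 at P0 (SD, n = 4 each). The difference was -0.31 ± 0.21 (SE; 95% interval -0.78 to 0.17; adjusted p = 0.343, limma with Benjamini-Hochberg), and it turned positive with no scaling (0.22) and with scaling to all probes (0.84), which also moved the median of all 158 to 0.35 and 0.36.

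**Figure D2:**
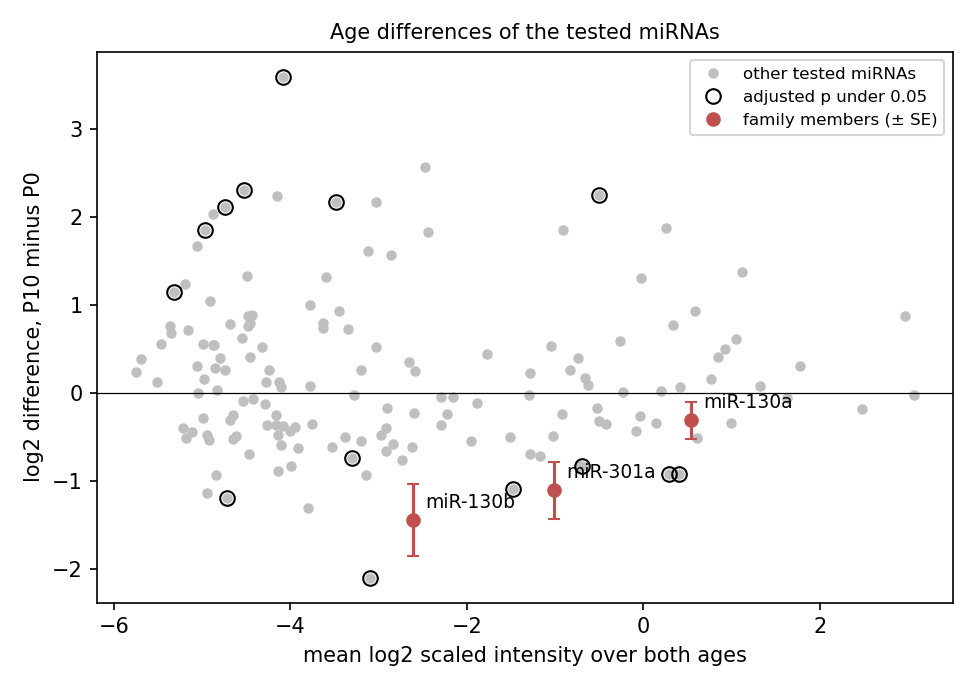
Log2 difference, P10 minus P0, against the mean log2 scaled intensity over both ages for the 158 tested miRNAs; rings mark the 14 with an adjusted p under 0.05 and red points with bars the members ± SE. miR-130b (-1.44) and miR-301a (-1.10) lie near the lower edge of the cloud and miR-130a (-0.31) inside it, and none of the 3 is ringed.

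The members' calls depended on which arrays were kept. Without the dim P0 replicate 1 and with the scaling unchanged, all 3 were lower at P10: miR-130b by -1.60 ± 0.44, miR-301a by -1.25 ± 0.32 and miR-130a by -0.42 ± 0.13 (SE), with adjusted p of 0.0312, 0.0249 and 0.0426 by limma. In that fit 37.5% of 168 tested miRNAs were called, 24.4% as lower, so a call was common there. With the scaling redone as well, the differences were -1.78 (adjusted p = 0.0474), -1.43 (0.0439) and -0.60 (0.0722) in limma, beside 42.3% of miRNAs called, 27.4% as lower. The other single arrays changed no member's call except P10 replicate 4: without it, miR-130b (-1.71, adjusted p = 0.0440) and miR-301a (-1.29, adjusted p = 0.0492) passed in limma and miR-130a (-0.36) did not.

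The near-identical arrays of P10 set the size of the differences. Without P10 replicates 1 and 2, miR-130b differed by -0.72 ± 0.24, miR-301a by -0.59 ± 0.22 and miR-130a by -0.20 ± 0.19 (SE), with adjusted p of 0.139, 0.172 and 0.608 by limma, beside 8.24% of miRNAs called, 4.71% as lower. Without P10 replicates 3 and 4, miR-130b differed by -2.18 ± 0.23 and miR-301a by -1.62 ± 0.21, both past the threshold (adjusted p of 0.00127 and 0.00278 by limma, beside 45.5% of miRNAs called, 15.6% as lower), and miR-130a by -0.43 ± 0.17 (adjusted p = 0.0929). Either fit leaves only a near-identical pair at P10, and whether its spread equals that of separately prepared cells was not tested. With each pair averaged and counted as 1 sample, limma gave adjusted p of 0.233, 0.244 and 0.649 for miR-130b, miR-301a and miR-130a, and it called 0 of 158 miRNAs. There, 26 of the 158 had an unadjusted p under 0.05.

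**Figure D3:**
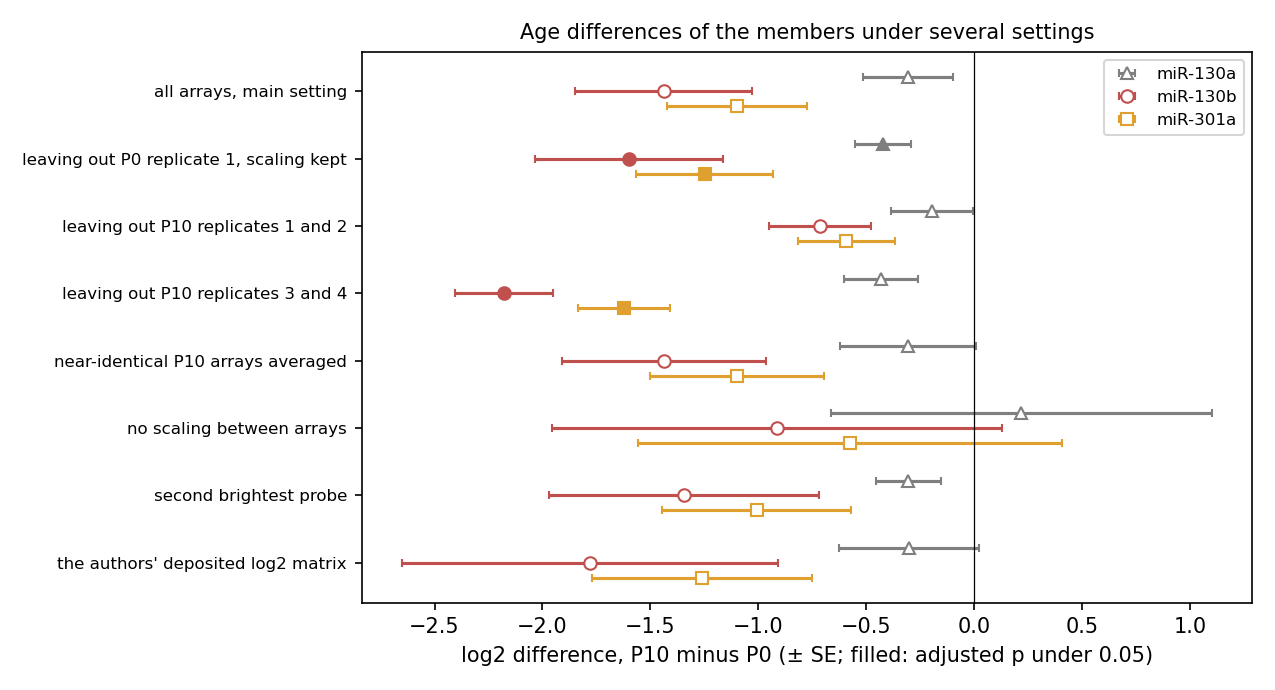
Log2 difference, P10 minus P0, ± SE of each member with all arrays and under 7 other settings; filled symbols have an adjusted p under 0.05. miR-130b and miR-301a lie below 0 in every setting drawn, from -2.18 to -0.58, while miR-130a lies between -0.43 and 0.22. miR-130a is filled only without P0 replicate 1 (-0.42).

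On these arrays, the ratio of a pair of members on the same array differed between the ages. It does not depend on the scaling between arrays. Such a ratio compares how 2 probes changed and is no ratio of molecules. The log2 ratio of miR-130b to miR-130a was -4.42, -4.24, -3.13 and -3.09 on P10 replicates 1 to 4, against -2.72, -2.59, -2.52 and -2.52 on P0 replicates 1 to 4. All P10 arrays lay below all P0 arrays, and the dim P0 replicate 1 was the lowest at P0. The difference was -1.13, with means of -3.72 ± 0.71 at P10 and -2.59 ± 0.10 at P0 (SD, n = 4 each).

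The log2 ratio of miR-301a to miR-130a was -2.37, -2.34, -1.56 and -1.56 at P10, against -1.26, -1.15, -1.12 and -1.11 at P0. It differed by -0.79, again with no overlap. The log2 ratio of miR-130b to miR-301a was -2.05, -1.91, -1.57 and -1.53 at P10, against -1.46, -1.44, -1.39 and -1.41 at P0, and differed by -0.34. This last difference turned to 0.27 with the floor at the dim array's detection limit and was -0.11 with normexp background, with adjusted exact permutation p of 0.429 and 0.743. The SD of the ratio of miR-130b to miR-301a was 0.26 at P10 and 0.03 at P0. Over the 3 pairs compared, each had a two-sided exact permutation p of 0.0286, the smallest that 70 arrangements allow, and 0.0286 after Benjamini-Hochberg adjustment over the 3. The last log2 ratio is the first minus the second, so the 3 are not separate results. How many other pairs of tested miRNAs separate the ages in this way was not counted. Of single miRNAs, 25.9% had no overlap in either direction. With any 1 P0 array left out, the adjusted exact permutation p was 0.0857 for all 3 ratios, where 35 arrangements allow 0.0286. The ages still did not overlap there. With each near-identical P10 pair counted as 1 sample, 15 arrangements allow no p below 0.0667, the exact permutation p of each ratio there.

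**Figure D4:**
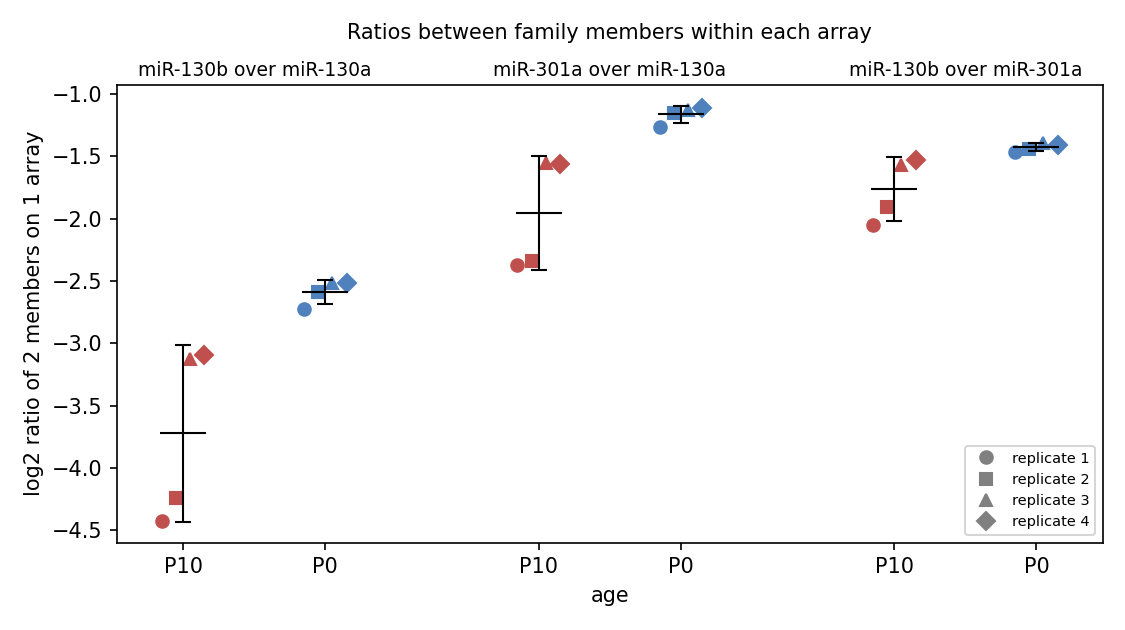
Log2 ratio between 2 members on the same array, P10 left of P0 for each pair of members; bars give mean ± SD of 4 arrays and marker shapes the replicate. In all 3 ratios the P10 arrays lie below the P0 arrays, which sit close together, and P10 replicates 1 and 2 lie lowest.

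The shorter probes gave the same signs, with gaps in detection. The longer probe was brighter for every member, by 1.76 to 1.89-fold on the 8 arrays for miR-130a, 2.66 to 5.64-fold for miR-130b and 4.68 to 7.19-fold for miR-301a. Read through the shorter probes, the differences were -0.30 for miR-130a, -1.35 for miR-130b and -1.01 for miR-301a. Limma gave adjusted p of 0.309, 0.295 and 0.273. Here the ages overlapped for miR-130b and miR-301a. The dim P0 replicate 1, without detection, had log2 -4.87 for miR-130b, below P10 replicates 3 and 4 (-4.21 and -4.03). For miR-301a it had -3.76, below -3.35 and -3.27. The shorter miR-130b probe was detected on 2 P10 arrays (replicates 3 and 4) and on 3 P0 arrays, and lay at the floor on P10 replicates 1 and 2. The shorter miR-301a probe was detected on all 4 P10 arrays and on 3 P0 arrays, all but the dim one. Through the shorter probes none of the 3 ratios passed: the adjusted exact permutation p was 0.129 for miR-130b over miR-130a, 0.129 for miR-301a over miR-130a and 0.171 for miR-130b over miR-301a. Spots of 1 probe on 1 array agreed closely: the median coefficient of variation over the 8 arrays was 1.59% for miR-130a, 7.82% for miR-130b and 5.25% for miR-301a on the longer probe.

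miR-301b, the neighbour of miR-130b with the same seed, was near the limit of the arrays and was not tested. On its brightest probe it had 1.36, 2.67, 33.8 and 35.2 units on P10 replicates 1 to 4, against 3.13, 115, 63.4 and 96.9 units on P0 replicates 1 to 4. It was detected on P10 replicates 3 and 4 and on P0 replicates 2 to 4, so P10 replicates 1 and 2 were low here too. The passenger strands miR-130a*, miR-130b*, miR-301a* and miR-301b* were not well above background on any of the 8 arrays. Further relatives, miR-454 and miR-721, had no probe under those names on the array.

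Related miRNAs outside the family held no calls. The mature miR-148b and miR-152 carry the family's first bases 1 position later, so their seed is CAGUGCA, as printed here from RefSeq to show the shift.
miR-148b-3p: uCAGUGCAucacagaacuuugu
miR-152-3p: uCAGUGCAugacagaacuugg
miR-148b-3p differed by -0.06 ± 0.45 and miR-152 by 0.80 ± 0.60 (SE, n = 4 per age), and limma gave adjusted p of 0.931 and 0.390. Of 3 miRNAs placed downstream of the family in pulmonary vascular cells, miR-322 (the rodent name for miR-424) differed by -0.23 ± 0.39 and miR-503 by 0.42 ± 0.75, where limma gave adjusted p of 0.697 and 0.718, and miR-204 was not detected on any array. Thus 0 of the 4 tested passed in either direction, where 8.86% of all tested miRNAs did, so a count of 0 says little.

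Over the 8 arrays the levels of miR-130b and miR-301a ran together, with a Pearson r of 0.997. Each r is a description over 8 arrays that share the scaling, the age and the paired structure of P10. Of the 157 other tested miRNAs, miR-301a ranked second by likeness to miR-130b, behind miR-490* (r also 0.997), and miR-130b ranked first for miR-301a. miR-130a was less like either, with r of 0.868 to miR-130b and 0.901 to miR-301a.

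The miRNAs outside the family most like miR-130b were miR-490*, miR-181a (0.984) and miR-30d (0.982), and those most like miR-301a were miR-490* (0.993), miR-181a (0.988) and miR-378* (0.984). Their differences were smaller than that of miR-301a, at -0.93 ± 0.32 for miR-490*, -0.54 ± 0.24 for miR-181a, -0.69 ± 0.28 for miR-30d and -0.66 ± 0.22 for miR-378* (SE, n = 4 per age), and none passed. For miR-490*, miR-30d and miR-378* every P10 array also lay below every P0 array, and for miR-181a the ages overlapped. Those most like miR-130a were miR-26a (r = 0.993), miR-335 (0.988) and miR-145 (0.979), with differences of -0.34 ± 0.23, -1.30 ± 0.43 and -0.69 ± 0.37. None of these 3 passed either.

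The fibroblast and cardiomyocyte lists also differed between the pairs of P10 arrays, in opposite directions. The summed scaled intensity of the fibroblast list (miR-21, miR-199a-5p, miR-199a-3p and miR-214, 4 of 4 detected) was 26.5 and 27.1 on P10 replicates 1 and 2 and 4.89 and 4.86 on P10 replicates 3 and 4, against 4.12 to 6.96 at P0. Most of that sum was miR-21, with log2 levels of 4.58, 4.61, 2.21 and 2.21 on P10 replicates 1 to 4, against 2.04 to 2.76 at P0. The arrays lowest in miR-130b and miR-301a were thus the highest in the fibroblast list. miR-130a was lowest on them too, at log2 0.33 and 0.23, but narrowly, with 0.35 on P0 replicate 1. The cardiomyocyte list (6 of 6 detected) summed to 10.1 and 9.26 on P10 replicates 1 and 2 and 19.9 and 20.7 on P10 replicates 3 and 4, against 11.6 to 17.1 at P0. On P10 replicates 3 and 4 the fibroblast sum, mostly miR-21, lay in the P0 range. The rest of the list did not: miR-199a-5p (log2 -4.70 and -4.62), miR-199a-3p (-2.78 and -2.97) and miR-214 (-3.64 and -3.71) lay above every P0 array. Their highest P0 levels were -5.03, -3.44 and -4.08. The members' values on P10 replicates 3 and 4 are those given for the fit without P10 replicates 1 and 2. The part of either list in the result was not tested, and in such bulk RNA fewer cells of a type and less RNA per cell cannot be told apart.

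**Figure D5:**
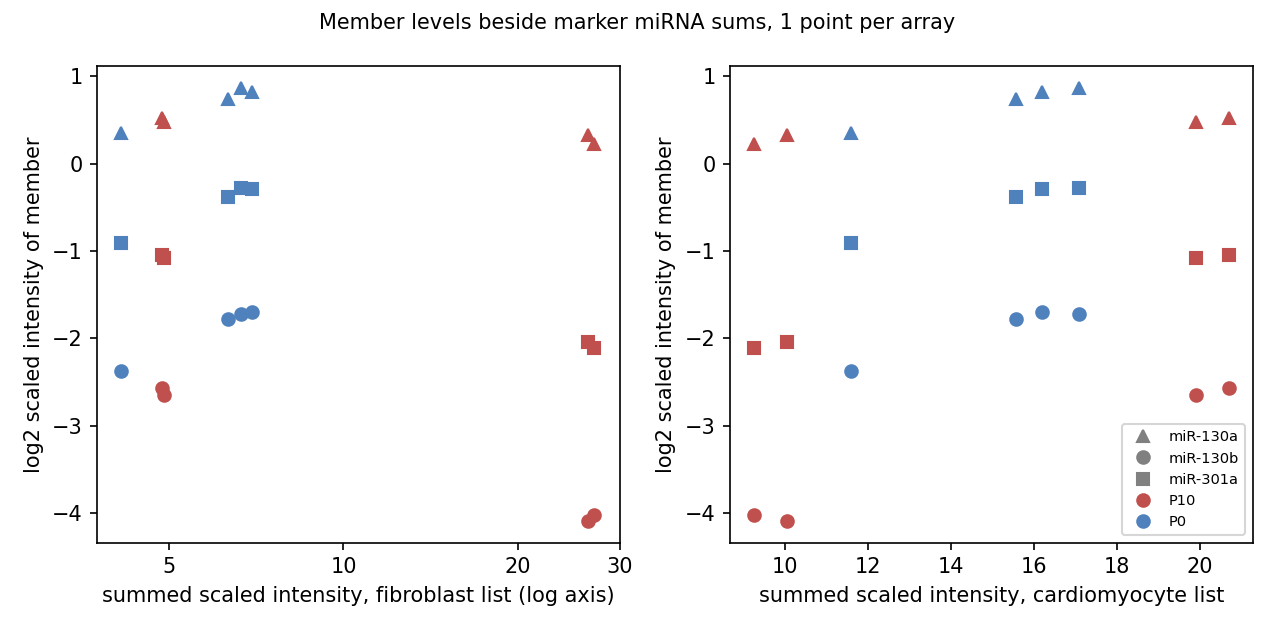
Level of each member (log2 scaled intensity) against the summed scaled intensity of the fibroblast list (left, log axis) and of the cardiomyocyte list (right), 1 point per array and member, P10 in red and P0 in blue. The 2 P10 arrays at fibroblast sums of 26.5 and 27.1 carry the lowest levels of each member, those of miR-130a only narrowly. They have cardiomyocyte sums of 10.1 and 9.26.

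The other lists were smaller. The smooth muscle list (miR-143 and miR-145) summed to 0.852 to 1.17 at P10, against 1.34 to 2.17 at P0, with no overlap. Nearly all of that sum was miR-143. The ages overlapped in miR-145, which was not detected on P0 replicate 1. Of the endothelial list, miR-126 was detected and miR-126* on no array, and the sum was 0.149 to 0.247 at P10, against 0 to 0.0609 at P0. The leukocyte list (3 of 5 on the array detected, miR-142-5p and miR-150 on none) summed to 0.208 and 0.205 on P10 replicates 1 and 2 and 0.0545 and 0.0569 on P10 replicates 3 and 4, against 0.188 on the dim P0 replicate 1 and 0.0245 to 0.0390 on the other P0 arrays. It was thus high on the same P10 pair as the fibroblast list, where miR-130b, miR-301a and, narrowly, miR-130a were lowest. Of the erythroid list miR-144 was detected on no array, and of the neural list miR-9 and miR-124 on none, and their sums reached at most 0.0180 (erythroid) and 0.0631 (neural) at P10, against 0.0336 and 0.0697 at P0. Their part in the members' differences was not tested.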

How the data were processed

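Per the file headers, each array was scanned and read with Agilent Feature Extraction (version 10.7.1.1 in the submitters' processing notes), which gave background-subtracted intensities per spot, as deposited, on 1 slide in 1 scan. The value table of the series differed from these intensities by at most 0.493% and had array medians of -2.31 to -0.179. The authors also deposited a log2 matrix, whose scaling no source used here gives, and 675 miRNAs were matched to it. No saturated miRNA spot was found.

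Control spots and outlier spots were left out, spots were averaged per probe, and probe means were scaled to the array's 75th percentile among 111 probes with detection on every array. A floor at 0.0169 scaled units (log2 -5.89) was then set and log2 taken, and the brightest probe stood for each miRNA. P10 and P0 were compared with limma 3.58.1 in R 4.3.3 with Benjamini-Hochberg adjustment at 0.05, and ratios between members with exact permutation tests.

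The members, the related miRNAs and the marker lists were chosen with earlier results of these data known. The other miRNAs named are the 3 outside the members with the highest r to each member. The labels do not say that replicate numbers pair samples, so numbers were not treated as pairs. Same-numbered P10 and P0 arrays did not deviate together throughout. Genes were named from RefSeq on GRCr8, and array positions are those of rn4. The number of arrays limits the precision.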

Additional observations from a re-analysis of the deposited data

Results flagged for a closer look

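P0 replicate 1 stood apart from the other 3 P0 arrays in both members that differed most between the ages. For miR-130b its level was log2 -2.38, against -1.78 to -1.69 on the other P0 arrays, a gap of 0.874 of the group's range. For miR-301a its level was log2 -0.92, against -0.39 to -0.28, a gap of 0.837 of the range. Both exceed Dixon's 95% critical value for groups of 4. Over the 12 groups of 4 checked, chance flags about 1 in 20. The same array had the lowest scale intensity of the 8, at 116 units, and detected 73 miRNAs, against 157 to 187 on the others.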

How the results depend on the processing

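Over 29 alternatives the difference stayed negative for miR-130b and miR-301a in all 29 and for miR-130a in 27, turning positive with scaling to all probes (0.84) and with no scaling (0.22). The count of miRNAs past the threshold, 14 in limma, was 0 with scaling to all probes, 0 with normexp background and 0 with near-identical arrays averaged (14, 22 and 26 at an unadjusted p under 0.05). It was 5 with no floor, 8 with the floor at the dimmest array's limit, 7 with second probes, 8 with probe means, 4 with no detection filter, 3 with total signals, 1 in the authors' deposited log2 matrix and 76 without P10 replicates 3 and 4. It was 71 without P0 replicate 1 (63 with the scaling kept), 4 without P0 replicate 3 or P10 replicate 1, 5 without P0 replicate 2, P0 replicate 4 or P10 replicate 2, and 9 without P10 replicate 3. With the replicate block the count was 4, and no member's call changed. Same-numbered arrays had r of -0.15 to 0.16 between their deviations. That does not settle whether the numbers pair samples, which the labels do not state.

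Past the threshold came miR-130b with the floor at the dimmest array's limit (-0.83), both miR-130b (-1.44) and miR-301a (-1.10) when only the 70 miRNAs detected on all 8 arrays were tested, and both without P10 replicates 3 and 4 (-2.18 and -1.62). Without P0 replicate 1 and with scaling kept, the 3 members were at -0.42 (miR-130a), -1.60 (miR-130b) and -1.25 (miR-301a). With single arrays left out the ranges were -0.60 to -0.25 for miR-130a, -1.78 to -1.19 for miR-130b and -1.43 to -0.92 for miR-301a.

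The ratio differences lost their call in these settings, given in the order miR-130b over miR-130a, miR-301a over miR-130a and miR-130b over miR-301a: -1.04, -0.70 and -0.34 with second probes, -1.09, -0.75 and -0.34 with probe means, -0.80, -0.73 and -0.065 with total signals, -1.18, -0.83 and -0.35 without P0 replicate 1, -0.52, -0.40 and -0.12 without P10 replicates 1 and 2, -1.74, -1.19 and -0.55 without P10 replicates 3 and 4, -1.48, -0.96 and -0.52 in the authors' deposited log2 matrix, and -1.13, -0.79 and -0.34 with near-identical arrays averaged. All 3 ratios also lost it without P0 replicate 2, 3 or 4, with an adjusted exact permutation p of 0.0857. The ratio of miR-130b to miR-301a also lost it with normexp (-0.11) and the median of spots (-0.33), and turned to 0.27 with the floor at the dimmest array's limit. With single arrays left out the ranges were -1.34 to -0.90, -0.93 to -0.66 and -0.42 to -0.24. In the total signals miR-130b exceeded miR-130a on P10 replicate 2 (740 against 715 units) and on P0 replicate 1 (164 against 149 units), unlike on the other 6 arrays, and the total-signal ratios of miR-130b rest on those values. Where a P10 pair was left out or pairs were averaged, 15 arrangements allow no ratio p below 0.0667 in the exact permutation test. Without 1 P0 array, 35 arrangements allow an exact permutation p of 0.0286, and the ages still did not overlap in any ratio. Arrangements that set P10 replicates 1 and 2 and either replicate 3 or 4 against the rest gave larger differences there. For the other changes the cause was not tested. The dim P0 replicate 1 limits what can be said of levels below its detection limit.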
